A study of Rattus norvegicus with 8 samples.

Results

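The 9 genes described here belong to the NF-kB and STAT signalling pathways: Rela, Nfkb1, Nfkbia, Tnfaip3, Stat3, Socs3, Irf1, Csf1 and Cxcl12. They were taken by symbol from a table of 32662 genes, in which each of them had 1 row. Their messages were read by RNA sequencing in 8 libraries from cultured oligodendrocyte precursor cells (OPCs), the dividing glial cells from which myelinating oligodendrocytes arise. The cells of 4 libraries had gone through 6 h of oxygen glucose deprivation (OGD), which imitates ischaemia in a dish, and those of the 4 control libraries had not. All 8 shared their source: cerebral cortex of Sprague Dawley rats aged 1 to 2 days, grown as mixed glia in 20% serum, from which the cells that did not stick were replated. The replated cells were then held for 4 to 5 days in serum-free Neurobasal medium supplemented with 2% B27, the growth factors FGF and PDGF at 10 ng/ml, 1% penicillin and streptomycin, and 2 mM glutamine. No label says whether the libraries of a group came from separate cultures, so the spread behind each p-value may be technical.

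NF-kB is a family of paired transcription factors held in the cytoplasm by IkB proteins. Cytokine receptors and Toll-like receptors activate a kinase complex that marks IkB for destruction, the freed factor enters the nucleus, and among the genes it switches on are its own inhibitors. STAT proteins are transcription factors phosphorylated by JAK kinases at cytokine receptors, and SOCS proteins, induced by STATs, shut the receptors off again. In brain injury both pathways are known best from microglia and astrocytes, while in the oligodendrocyte lineage they take part in survival signalling and in the response to interferon and to cytokines of the ciliary neurotrophic factor family.

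Values are FPKM, fragments per kilobase of gene scaled to the library's depth, so levels of different genes can be set side by side. Summed FPKM was 439797 to 477862 in OGD and 461111 to 494229 in control libraries, and 14095 to 14440 and 14327 to 14444 genes had a value above 0. Fragment totals are unknown. Steps between low values gave relative depths of 0.814 to 1.17 in OGD and 1.00 to 1.11 in control libraries, with control replicate 1 set to 1. The mitochondrially encoded genes held 20.4% to 30.4% of summed FPKM in OGD and 25.1% to 27.9% in control libraries. Of the precursor markers Olig1 and Ptprz1 had the highest means over the 8 libraries, at means of 357 and 271 FPKM in OGD and 794 and 342 FPKM in control libraries, while 11 of 11 matched vascular and stromal markers averaged 0.105 FPKM or less.

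The transcription factor gene Stat3 and its feedback inhibitor Socs3 fell under OGD, as did the interferon-response factor Irf1 and the growth factor Csf1. These 4 genes were at 0.438 to 0.573 of the control mean FPKM. The NF-kB inhibitor Tnfaip3 rose 1.87-fold and the NF-kB subunit Rela 1.17-fold in mean FPKM. Nfkbia and Nfkb1 did not pass the test, and Cxcl12 lay below the filter on low values. A gene was tested if it had at least 1 FPKM in at least 4 libraries, and the 8 tested members had at least 1 FPKM in all 8. The test was limma on log2(FPKM + 1) over 11149 genes, with an adjusted p (Benjamini-Hochberg) of 0.05 as the threshold; log2 differences are OGD minus control on that scale, which understates changes of low genes. Of the 8 tested members 2 rose and 4 fell, where 49.5% of all tested genes passed, 22.7% upward and 26.8% downward. The number that rose was 0 without OGD replicate 3 and 1 (Tnfaip3) without control replicate 3. It was also 1 without control replicate 4, where Nfkbia passed and neither Rela nor Tnfaip3 did. Without OGD replicate 1 it stayed at 2, with Nfkbia in place of Rela. The 4 OGD and 4 control libraries did not overlap for 5 of the 8, against 44.7% of all tested genes. The median log2 difference was -0.26 over the 8 members and -0.04 over all tested genes.

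**Figure D1:**
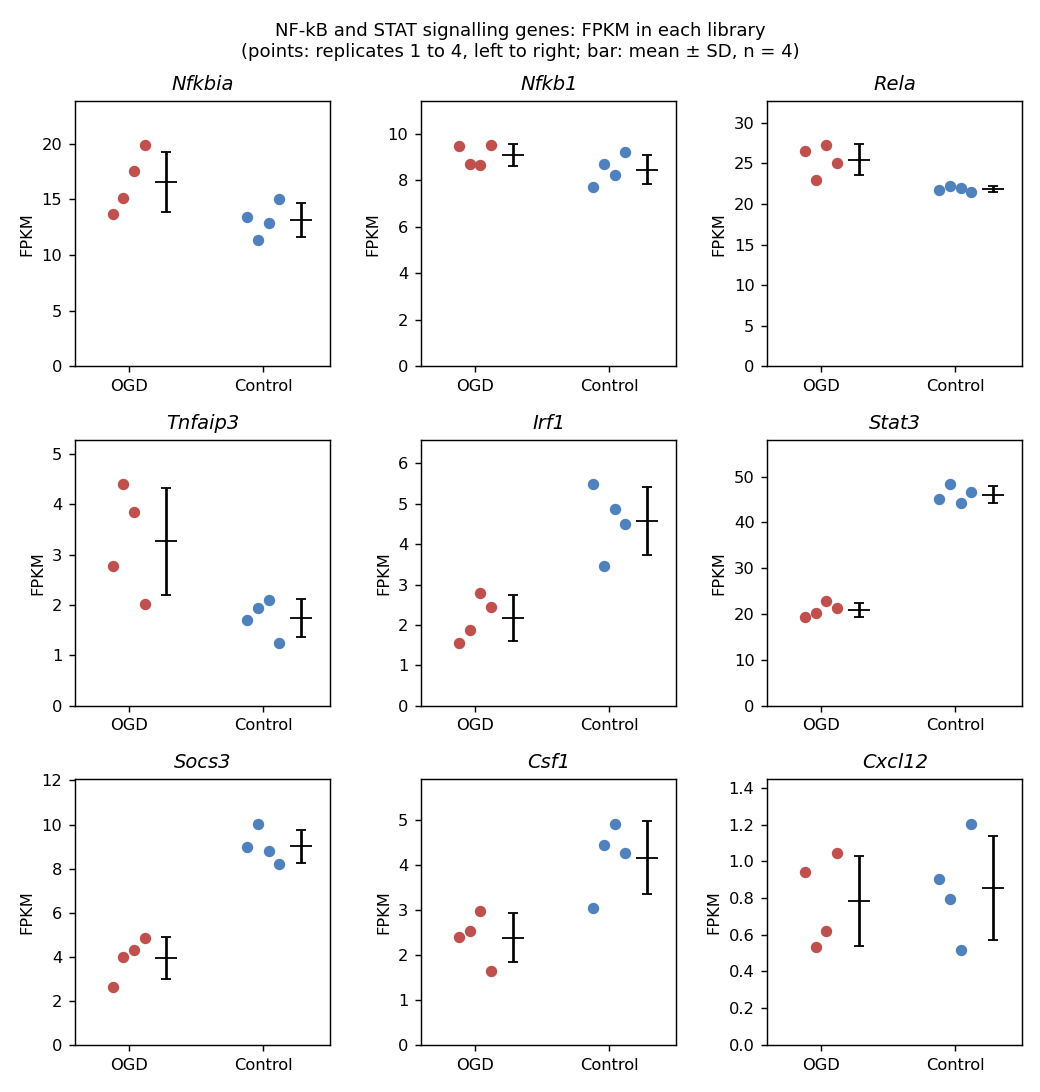
FPKM of the 9 genes in each of the 4 OGD (left in each panel) and 4 control libraries (right), with the mean and SD beside the points; each vertical axis starts at 0. The OGD points of Stat3, Socs3, Irf1 and Csf1 all lie below the control points, those of Rela all lie above, and the groups overlap for Nfkbia, Nfkb1, Tnfaip3 and Cxcl12.

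Rela (ENSRNOG00000030888) encodes the main activating subunit of NF-kB. It was at 26.5, 23.0, 27.3 and 25.1 FPKM in OGD libraries 1 to 4, and at 21.7, 22.2, 22.0 and 21.5 FPKM in control libraries 1 to 4. Every OGD library lay above every control library, as for 20.7% of all tested genes, and the OGD libraries were spread more widely (SD 1.88 FPKM, against 0.340 FPKM in control libraries, n = 4 each). The log2 difference was 0.21 ± 0.07 (standard error, as for the other members; limma, adjusted p = 0.0257, range over 16 alternatives 0.0109 to 0.0712). It no longer passed after median-centring (adjusted p = 0.0574), or without OGD replicate 1 (0.0692), OGD replicate 3 (0.0712), control replicate 3 (0.0566) or control replicate 4 (0.0658).

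Nfkb1 (ENSRNOG00000023258), the precursor of Rela's usual partner subunit, was at 9.48, 8.70, 8.66 and 9.51 FPKM in OGD libraries and at 7.72, 8.67, 8.21 and 9.21 FPKM in control libraries. The groups overlapped, and the log2 difference of 0.09 had a 95% interval of -0.09 to 0.27 (limma, adjusted p = 0.362). Nfkbia (ENSRNOG00000007390), the IkB protein that NF-kB induces most directly, was at 13.7, 15.2, 17.5 and 19.9 FPKM in OGD libraries, against 13.4, 11.4, 12.9 and 15.1 FPKM in control libraries. OGD replicates 2 to 4 lay above every control library, while OGD replicate 1 lay below control replicate 4. The log2 difference of 0.30 (95% interval 0.04 to 0.56, not adjusted) missed the threshold (limma, adjusted p = 0.0537, range over 16 alternatives 0.0211 to 0.139). It passed without OGD replicate 1 (adjusted p = 0.0211) and without control replicate 4 (0.0379), with a filter of 5 FPKM (0.0485) and after rescaling outside mitochondrially encoded genes (0.0288).

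Within a library, Nfkbia stood at 0.652 ± 0.113 of the level of Rela in OGD and at 0.604 ± 0.0790 in control libraries (mean ± SD of FPKM ratios, n = 4 each), and the ratios of the groups overlapped. Rela was the highest of the 9 genes in OGD libraries and the second highest in control libraries. Of the other subunits and IkB proteins, Relb, Rel and Nfkb2 were between 0.606 and 1.99 FPKM in the 8 libraries. Relb averaged 1.00 ± 0.278 FPKM in OGD and 1.44 ± 0.105 FPKM in control libraries, and Nfkb2 1.22 ± 0.347 and 1.63 ± 0.259 FPKM in OGD and control libraries (SD, n = 4 each). Nfkbie, another IkB protein, averaged 5.52 ± 0.536 FPKM in OGD and 6.72 ± 0.596 FPKM in control libraries (limma, adjusted p = 0.0571). Of 8 tested genes of this class Rela was the one that passed; 0 rose without OGD replicate 3 or control replicate 3, while 2 fell without OGD replicate 4 and 1 without control replicate 4. A further 3 (Nfkbid, Nfkbiz and Bcl3) averaged 0.702 FPKM or less over the 8 libraries.

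Tnfaip3 (ENSRNOG00000049517) encodes the ubiquitin-editing enzyme that removes activating ubiquitin chains from receptor complexes upstream of NF-kB, and it is itself an NF-kB target. It was at 2.78, 4.39, 3.85 and 2.03 FPKM in OGD libraries, against 1.70, 1.95, 2.10 and 1.24 FPKM in control libraries. OGD replicates 1 to 3 lay above every control library, and OGD replicate 4 lay just under control replicate 3. The log2 difference was 0.61 ± 0.18 (limma, adjusted p = 0.0179, range over 15 alternatives 0.00301 to 0.0535), and it missed the threshold without OGD replicate 3 (adjusted p = 0.0529) or control replicate 4 (0.0535).

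Stretches of the promoters of Nfkbia, Tnfaip3 and Irf1 are shown because these 3 members, all known NF-kB targets, held a kappaB match and had log2 differences of both signs (0.30, 0.61 and -0.82). The windows run from 250 bases before to 50 bases after a RefSeq transcript start (build GRCr8, another build than that of the deposited table). Windows of 6 members were searched on both strands for the kappaB consensus, for TTCNNNGAA (the core of STAT binding elements) and for ACGTG (the core of hypoxia response elements, which in the motif CACGTG matches both strands). Those of Socs3 and Nfkb1 were left out because their transcript starts lie 1207 and 435 bases inside the annotated gene. The starts used for Nfkbia, Stat3 and Tnfaip3 also lie inside it, by 235, 154 and 14 bases. For Nfkbia and Stat3, most of the 250 bases before the start are therefore within the annotated gene. Csf1 was not searched. Capitals mark the matches in the stretches of 30 bases, written 5′ to 3′ on the gene's strand.
Nfkbia, chr6:78597084-78597113, minus strand, kappaB: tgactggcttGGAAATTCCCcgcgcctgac
Tnfaip3, chr1:15544130-15544159, minus strand, kappaB: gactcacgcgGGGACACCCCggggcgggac
Tnfaip3, chr1:15544021-15544050, minus strand, 2 kappaB matches: gactGGAAAGTCCCtcGGAAATCCCCctgt
Tnfaip3, chr1:15544174-15544203, minus strand, ACGTG: ccacatggatgtgACGTGgaaggcagcttc
Tnfaip3, chr1:15544038-15544067, minus strand, CACGTG: ccatgcgggagtCACGTGactggaaagtcc
Irf1, chr10:38417685-38417934, plus strand, the 250 bases before the start, TTCNNNGAA first and kappaB second: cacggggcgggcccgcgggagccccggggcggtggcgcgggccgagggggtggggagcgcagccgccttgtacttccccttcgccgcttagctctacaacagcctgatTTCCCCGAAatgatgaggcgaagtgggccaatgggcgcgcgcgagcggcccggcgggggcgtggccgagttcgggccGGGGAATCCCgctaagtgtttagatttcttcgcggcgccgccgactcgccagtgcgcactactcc

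A kappaB match was found in the windows of Tnfaip3 (3 matches), Nfkbia (1) and Irf1 (1), and in 4.18% of 33469 windows of the same length. The TTCNNNGAA match of Irf1 was the only one among the 6 searched members, and 8.87% of all windows hold one. ACGTG was found in the window of Tnfaip3 and in 19.3% of all windows. Rela, Stat3 and Cxcl12 had none of these letters in their windows. Tnfaip3, which rose, and Irf1, which fell, both held a kappaB match; a match is a description of letters and not a measured binding site.

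Other genes around NF-kB moved both ways. Of 18 tested genes listed as activating receptors, adaptors and kinases, 3 rose and 7 fell, and 7 more lay below the filter. The share called was 55.6%, against 49.5% of all tested genes. The number that fell was 4 without control replicate 2 and 3 without control replicate 3. Tlr2, a receptor for bacterial lipoproteins, was at 0.572, 0.507, 0.414 and 0.501 FPKM in OGD libraries and at 1.59, 2.80, 2.02 and 3.44 FPKM in control libraries, and it entered the test through its control values alone, as Map3k14, one of those that rose, did through its OGD values. Ripk1, the kinase of the tumour necrosis factor receptor complex, fell to 4.09 ± 0.406 FPKM in OGD, against 5.84 ± 0.506 FPKM in control libraries (log2 difference -0.42, limma adjusted p = 0.00481); it overlaps Serpinb6a in the RefSeq annotation. Traf3, an adaptor that restrains the alternative NF-kB pathway, rose to 6.09 ± 0.869 FPKM in OGD, against 4.18 ± 0.455 FPKM in control libraries (0.45, adjusted p = 0.00661). Traf3 is thus counted among the listed genes that rose without being only an activator.

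Of 12 tested genes listed as brakes of the pathway 5 rose, Tnfaip3 among them, and 1 fell. Birc2 is counted with those that rose, although it does not act only as a brake. Itch, a ubiquitin ligase that works with the Tnfaip3 protein, rose to 23.5 ± 2.21 FPKM in OGD, against 14.7 ± 1.65 FPKM in control libraries, and Birc2, a ubiquitin ligase of the same receptor complexes, to 12.9 ± 0.628 against 9.38 ± 0.896 FPKM (SD, n = 4 each; limma, adjusted p = 0.000314 and 0.00170). Otulin, which cleaves linear ubiquitin chains, fell to 8.68 ± 0.849 FPKM in OGD, against 11.8 ± 0.826 FPKM in control libraries (adjusted p = 0.00319).

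A list of 25 target genes of NF-kB holds the members Nfkbia, Nfkb1, Tnfaip3 and Csf1. Irf1, named above as a known NF-kB target that fell, is not on it or in its counts. Of the 25, 13 lay below the filter, with means of at most 0.509 FPKM, and these included the cytokines Il6, Tnf and Il1b. Tnf was listed at 0 in all 8 libraries. Of the 12 tested targets 3 rose and 4 fell, and 1 rose without OGD replicate 3. Called targets made up 58.3%, against 49.5% of all tested genes. Sod2, the mitochondrial superoxide dismutase, fell to 12.5 ± 0.249 FPKM in OGD, against 17.7 ± 1.76 FPKM in control libraries (log2 difference -0.47, limma adjusted p = 0.000754). Gadd45b, a stress-induced regulator of MAP kinase signalling, fell to 1.30 ± 0.369 FPKM, against 2.34 ± 0.438 FPKM in control libraries. Bcl2l1, which encodes the survival protein BCL-XL, rose to 20.2 ± 1.42 FPKM, against 16.0 ± 1.41 FPKM in control libraries (0.31, adjusted p = 0.00800).

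Stat3 (ENSRNOG00000019742), the STAT that relays signals of the ciliary neurotrophic factor and interleukin families, was at 19.4, 20.3, 22.9 and 21.2 FPKM in OGD libraries, against 45.1, 48.3, 44.3 and 46.6 FPKM in control libraries. The groups lay far apart, with 22.9 FPKM in the highest OGD library and 44.3 FPKM in the lowest control library. The log2 difference was -1.10 ± 0.07 (limma, adjusted p = 8.57e-07, range over 16 alternatives 5.59e-07 to 1.97e-05). It ranked 160 among the 2992 falls by size, and 2.15% of all tested genes were called with a log2 difference of -1 or lower. Stat3 was the highest of the 9 genes in control libraries and second to Rela in OGD libraries, where no OGD value of Stat3 reached the lowest value of Rela.

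Socs3 (ENSRNOG00000002946), which STAT3 induces and which blocks receptors that use the shared subunit gp130, was at 2.64, 4.00, 4.29 and 4.86 FPKM in OGD libraries, against 8.97, 10.0, 8.81 and 8.23 FPKM in control libraries. The groups did not overlap, and OGD replicate 1 was the lowest of the 8. The log2 difference was -1.04 ± 0.14 (limma, adjusted p = 0.000162, range over 16 alternatives 0.000102 to 0.00103). The ratio to Stat3 hardly moved: the FPKM ratio of Socs3 to Stat3 within a library was 0.187 ± 0.0385 in OGD and 0.196 ± 0.0134 in control libraries (SD, n = 4 each), and the ratios overlapped.

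Other genes of the STAT pathway moved both ways. Of 6 tested STAT and JAK genes 1 rose and 3 fell (66.7% called, against 49.5% of all tested genes). Jak1, a receptor kinase of interferon and gp130 receptors, fell to between 20.9 and 22.5 FPKM in OGD, against 26.9 to 29.6 FPKM in control libraries (limma, adjusted p = 0.00105); it overlaps Raver2. Stat2, which acts downstream of type I interferon, fell to 3.92 ± 0.247 FPKM in OGD, against 5.13 ± 0.308 FPKM in control libraries (adjusted p = 0.0135). Stat5b, which serves growth hormone and related receptors, rose to 15.8 ± 1.05 FPKM in OGD, against 12.5 ± 1.30 FPKM in control libraries (adjusted p = 0.0110). Of 10 tested cytokine receptors and ligands upstream of STATs 2 rose and 3 fell; 1 rose without OGD replicate 2, 3 or 4 or without control replicate 1 or 3. Ifnar1 and Ifnar2, the chains of the type I interferon receptor, differed in direction: Ifnar1 fell to 20.0 ± 0.540 FPKM in OGD, against 24.6 ± 1.49 FPKM in control libraries, and Ifnar2 rose to 9.04 ± 1.79 FPKM in OGD, against 5.83 ± 1.32 FPKM in control libraries (limma, adjusted p = 0.00460 and 0.0120). Ifngr2, a chain of the interferon gamma receptor, fell to 7.25 ± 0.553 FPKM, against 9.53 ± 0.804 FPKM in control libraries. The other chain, Ifngr1, rose to 22.6 ± 1.68 FPKM in OGD, against 19.3 ± 1.72 FPKM in control libraries. Ifngr1 lay close to the threshold (limma, adjusted p = 0.0497, range over 16 alternatives 0.0407 to 0.153).

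Of 14 tested brakes on STAT signalling 5 rose and 3 fell, and Socs3 was one that fell. Without control replicate 4 the number that rose was 3. The share called was 57.1%, against 49.5% of all tested genes. Pias1, a SUMO ligase, rose to 29.3 ± 1.80 FPKM in OGD, against 20.0 ± 1.24 FPKM in control libraries, and Ptpn2, a phosphatase of JAKs and STATs, to 10.7 ± 1.28 against 6.63 ± 0.881 FPKM (limma, adjusted p = 0.000161 and 0.000831). Ptpn6, a phosphatase abundant in blood and microglial cells, fell to 2.11 ± 0.689 FPKM in OGD, against 5.22 ± 1.18 FPKM in control libraries (adjusted p = 0.000843). Socs7, chosen after its values were seen, went against Socs3: it was at 9.62, 9.27, 9.57 and 6.50 FPKM in OGD libraries and at 3.37, 5.03, 4.92 and 4.79 FPKM in control libraries (log2 difference 0.81, limma adjusted p = 0.000851).

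Of 14 tested target genes of STAT3, with Stat3 and Socs3 among them, 4 rose and 4 fell. The share called was 57.1%, against 49.5% of all tested genes. Ccnd1, the D cyclin of G1 phase, fell to 77.6 ± 8.33 FPKM in OGD, against 196 ± 7.77 FPKM in control libraries (log2 difference -1.33, limma adjusted p = 6.30e-07). Myc, a growth-promoting transcription factor, rose to 144 ± 18.4 FPKM in OGD, against 61.8 ± 4.99 FPKM in control libraries (1.201, adjusted p = 4.57e-06), and Pim3, a survival kinase, to 34.7 ± 0.788 against 22.0 ± 1.22 FPKM (0.63, adjusted p = 2.07e-05). These genes answer to many other regulators.

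**Figure D2:**
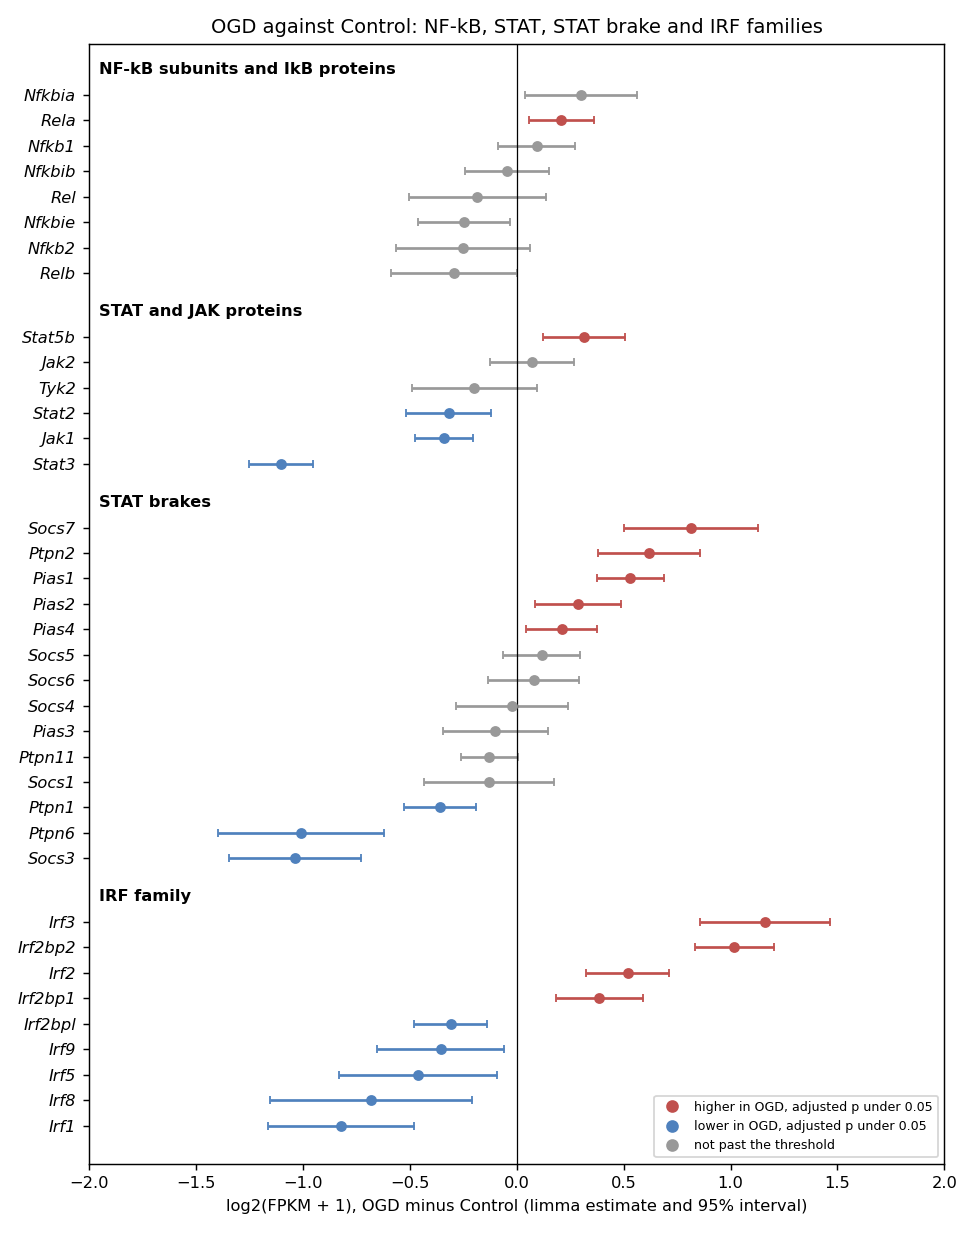
Log2(FPKM + 1) differences, OGD minus control, for the tested NF-kB subunits and IkB proteins, STAT and JAK proteins, STAT brakes and IRF genes, with limma's 95% intervals (not adjusted for the number of genes). Stat3 at -1.10 and Socs3 at -1.04 are the lowest of their groups, NF-kB subunits and IkB proteins stay between -0.29 and 0.30, and IRF genes lie on both sides of 0.

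Irf1 (ENSRNOG00000008144), a transcription factor induced by interferon and by NF-kB that switches on interferon-response and antigen-presentation genes, was at 1.56, 1.87, 2.80 and 2.46 FPKM in OGD libraries, against 5.48, 3.46, 4.87 and 4.50 FPKM in control libraries. All OGD values were below all control values, as for 24.1% of all tested genes. The log2 difference was -0.82 ± 0.16 (limma, adjusted p = 0.00137, range over 15 alternatives 0.00101 to 0.00540).

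Relatives of Irf1 went in both directions. Of 9 tested genes of the IRF family and its binding partners 4 rose and 5 fell, with a median log2 difference of -0.31. All were thus called, against 49.5% of all tested genes. The number that fell was 2 without OGD replicate 3 or control replicate 4. It was 3 without OGD replicate 1, OGD replicate 2 or control replicate 3. Irf3, the constitutive factor that starts interferon beta transcription, rose to 19.0, 17.7, 12.8 and 12.1 FPKM in OGD libraries, against 6.82, 5.62, 6.04 and 6.40 FPKM in control libraries (log2 difference 1.16, limma adjusted p = 7.07e-05). Irf3 overlaps Bcl2l12 in the RefSeq annotation, and since the use of strand in making the FPKM values is not given, reads of the 2 genes may not have been told apart. The same limit holds for genes that overlap noncoding RNAs or pseudogenes there, which are Csf1, Jak1, Irf2, Itch, Pias1, Ptpn2, Ifnar2, Ifngr2, Il34 and Bcl2l1; Il34 also overlaps the protein-coding Rpl29l3. Irf2, which competes with Irf1 for the same DNA sites, rose to 21.2 ± 2.62 FPKM in OGD, against 14.4 ± 0.106 FPKM in control libraries, and Irf2bp2, a corepressor that binds it, to 25.3 ± 2.37 against 11.98 ± 0.825 FPKM (limma, adjusted p = 0.000725 and 6.39e-06).

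Genes that interferon induces were mostly low in these cultures: 18 of 27 matched genes lay below the filter. Of the 9 tested 5 fell and 1 rose (66.7% called, against 49.5% of all tested genes). The number that fell was 3 without control replicate 1, 3 or 4. None (0) rose without OGD replicate 3 or 4 or control replicate 2, 3 or 4. Isg15, a ubiquitin-like modifier, was at 0.402, 0.305, 0.436 and 0.423 FPKM in OGD libraries and at 1.74, 1.68, 1.57 and 1.75 FPKM in control libraries, and it entered the test through its control values alone. Mx2, an antiviral GTPase, fell to 7.09 ± 1.77 FPKM in OGD, against 11.4 ± 0.571 FPKM in control libraries, and Psmb9, an immunoproteasome subunit that Irf1 regulates, to 3.56 ± 1.36 against 7.23 ± 1.76 FPKM (limma, adjusted p = 0.00283 and 0.00563).

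Microglial markers were also lower in OGD. Of 14 tested markers 13 fell and 0 rose, with a median log2 difference of -1.11, and none of the 15 matched markers was at 0 in any library. Of those that fell, Cx3cr1 and Ptprc entered the test through their control values alone, as did Gfap among the astrocyte markers. Their summed level was 105 to 184 FPKM in OGD and 285 to 442 FPKM in control libraries. The highest were Fcer1g, an Fc receptor chain, at 32.0 ± 7.45 FPKM in OGD and 60.5 ± 10.2 FPKM in control libraries, and C1qa, a complement subunit, at 19.3 ± 7.02 and 60.0 ± 14.8 FPKM in OGD and control libraries (SD, n = 4 each). In bulk RNA, fewer cells of a type and less RNA per cell cannot be told apart, and the part of microglial RNA in the falls of the members, Tlr2, Ptpn6 and the interferon-induced genes was not tested. Of the 11 tested markers of the precursor cells themselves 7 fell and 0 rose, with a median log2 difference of -0.42, and their summed level was 1628 to 1887 FPKM in OGD and 2576 to 2739 FPKM in control libraries. Of the other cell types, 2 of 8 tested astrocyte markers fell and 0 rose, and 4 of 12 neuronal markers fell and 3 rose. Of the astrocyte markers 1 fell without any 1 of the 4 control libraries, and 1 rose without OGD replicate 1. The share called was 25.0% of astrocyte and 58.3% of neuronal markers, against 49.5% of all tested genes. Slc1a3 and Sparcl1, the highest astrocyte markers, were at 60.1 ± 2.49 and 52.8 ± 2.05 FPKM in OGD. In control libraries they were at 63.4 ± 2.67 and 57.3 ± 4.42 FPKM. Those that fell were Gfap, to 0.480 ± 0.258 against 2.16 ± 0.618 FPKM, and S100b, to 6.67 ± 1.79 against 11.8 ± 2.37 FPKM. The astrocyte markers Aqp4 and Aldh1l1 lay below the filter. Gap43 and Map2, the highest neuronal markers, were at 201 ± 21.9 and 197 ± 37.1 FPKM in OGD. In control libraries they were at 283 ± 20.0 and 225 ± 28.7 FPKM. Rbfox3, a lower neuronal marker, averaged 5.68 ± 1.29 FPKM in OGD and 5.23 ± 0.885 FPKM in control libraries.

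**Figure D3:**
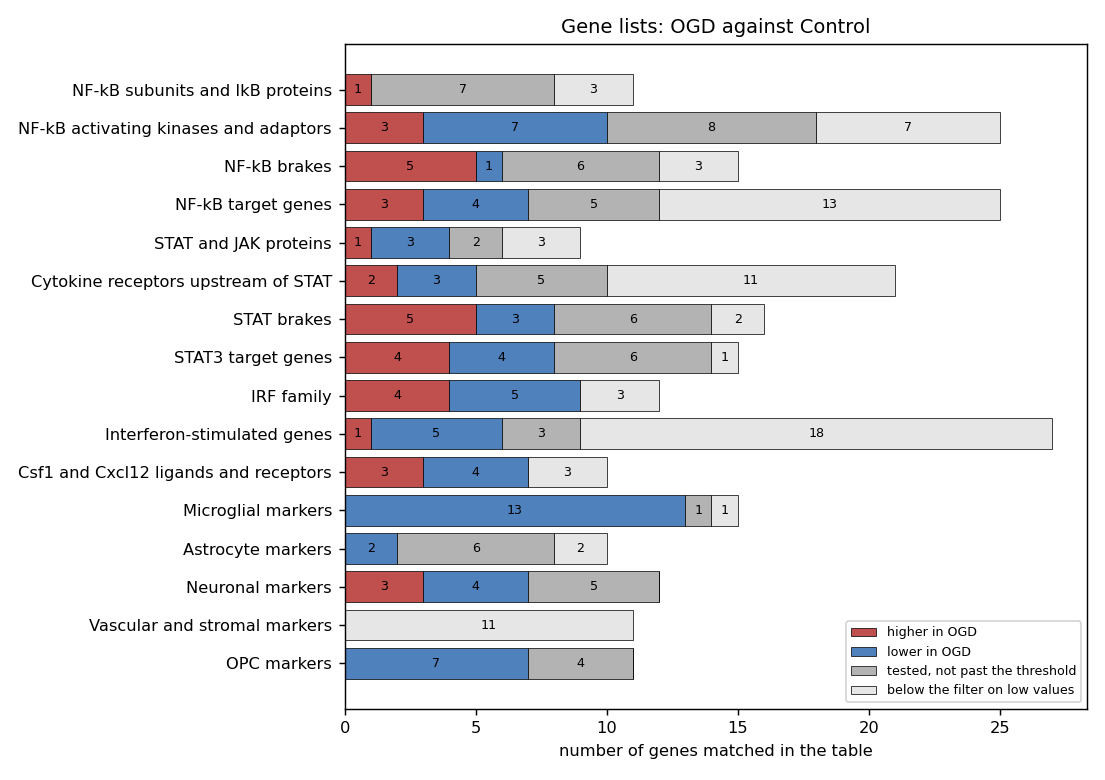
Number of matched genes of each list that were higher in OGD, lower in OGD, tested without passing the threshold (limma, adjusted p of 0.05) or below the filter on low values. Of 14 tested microglial markers 13 fell, whereas among NF-kB subunits and IkB proteins 7 of 8 tested genes did not pass.

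Csf1 (ENSRNOG00000018659) encodes the growth factor that keeps microglia and macrophages alive through the receptor Csf1r, and it is also listed as an NF-kB target. It was at 2.40, 2.53, 2.97 and 1.64 FPKM in OGD libraries, against 3.04, 4.44, 4.92 and 4.26 FPKM in control libraries. The groups did not overlap, but OGD replicate 3 and control replicate 1 lay close together. The log2 difference was -0.61 ± 0.16 (limma, adjusted p = 0.00750, range over 15 alternatives 0.00306 to 0.0261). Csf1r, also one of the microglial markers, was at 2.94, 3.98, 3.02 and 4.12 FPKM in OGD libraries, against 9.02, 12.1, 8.62 and 14.9 FPKM in control libraries (log2 difference -1.41, limma adjusted p = 6.38e-05). The ratio of Csf1 to Csf1r within a library was 0.709 ± 0.251 in OGD and 0.390 ± 0.125 in control libraries (SD, n = 4 each), with overlap between the groups. Il34, the other ligand of Csf1r, was listed at 0 in all OGD libraries and in control replicates 1 and 3, and at 0.0873 and 0.0848 FPKM in control replicates 2 and 4.

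Cxcl12 (ENSRNOG00000013589), the chemokine that guides precursor cells through the receptors Cxcr4 and Ackr3, was at 0.941, 0.536, 0.622 and 1.04 FPKM in OGD libraries, and at 0.902, 0.793, 0.517 and 1.21 FPKM in control libraries. The groups overlapped throughout. It was below the filter and was not tested; with no filter the log2 difference of -0.05 did not pass (limma, adjusted p = 0.809). Its level was the lowest of the 9 genes in both groups, and no difference was detectable at this level.

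Both receptors of Cxcl12 rose. Cxcr4, the signalling receptor, was at 5.16, 5.98, 6.33 and 6.98 FPKM in OGD libraries, against 0.994, 1.49, 1.08 and 2.04 FPKM in control libraries. Its mean was 4.37-fold higher in OGD, with a log2 difference of 1.58 ± 0.15 (standard error; limma, adjusted p = 1.49e-05). Ackr3, a receptor that takes up and removes Cxcl12, was at 26.9, 24.9, 24.4 and 33.8 FPKM in OGD libraries, against 13.2, 12.2, 9.25 and 12.8 FPKM in control libraries (log2 difference 1.15, adjusted p = 4.02e-05). All OGD libraries lay above all control libraries for both receptors. The ratio of Cxcl12 to Ackr3 within a library was 0.0282 ± 0.00591 in OGD and 0.0709 ± 0.0166 in control libraries (SD, n = 4 each). These ratios did not overlap, but Cxcl12 averaged 0.785 FPKM in OGD and 0.854 FPKM in control libraries. The separation thus restates the rise of Ackr3 and is no further result on Cxcl12.

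**Figure D4:**
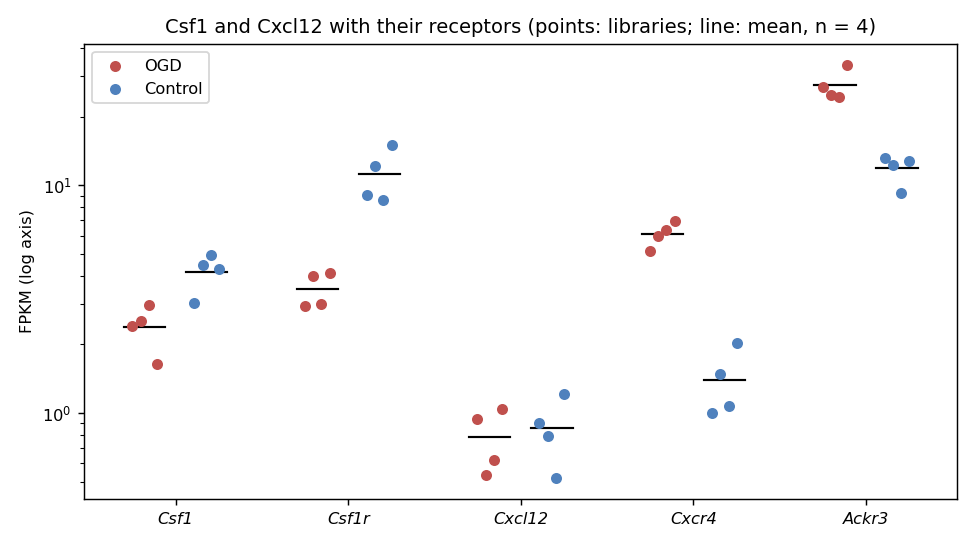
FPKM on a log axis of Csf1 and its receptor Csf1r, and of Cxcl12 and its receptors Cxcr4 and Ackr3, in each OGD (left of each gene) and control library (right), with group means as lines. Csf1 and Csf1r are both lower in OGD, Cxcr4 and Ackr3 are both higher, and Cxcl12 lies between 0.517 and 1.21 FPKM with overlapping groups.

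Ordered by mean FPKM, the 9 genes ran Rela, Stat3, Nfkbia, Nfkb1, Socs3, Tnfaip3, Csf1, Irf1 and Cxcl12 in OGD libraries. In control libraries the order was Stat3, Rela, Nfkbia, Socs3, Nfkb1, Irf1, Csf1, Tnfaip3 and Cxcl12. In OGD the ranges of Stat3 and Nfkbia overlapped, as did those of each neighbouring pair from Socs3 to Irf1, so these were not separated beyond their spread. In control libraries the overlapping neighbours were Socs3 with Nfkb1 and Irf1 with Csf1. The range of Tnfaip3 thus overlapped that of Csf1 in OGD libraries, whereas it lay below those of Csf1 and Irf1 in control libraries.

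For each tested member the gene with the most similar profile was sought among 10403 other tested genes, by the root mean square distance of log2(FPKM + 1) values centred over the 8 libraries. For Stat3 it was Ubash3b (distance 0.0618), which had a log2 difference of -1.17. For Socs3 it was Zbtb8os (0.0828) and for Irf1 Ccdc124 (0.0804), with log2 differences of -0.98 and -0.87. For Csf1 it was Sptb (0.0593), for Tnfaip3 Runx1t1 (0.117), for Rela Elf2 (0.0356), for Nfkbia Tex30 (0.0660) and for Nfkb1 Eif2s3x (0.0259).

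Over the 11 pathway lists, 99 tested genes were not members; 28 of these rose and 29 fell, with a median log2 difference of -0.12. The share called was 57.6%, against 49.5% of all tested genes.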

How the data were processed

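The authors deposited 1 table of FPKM values per gene and library, per the file headers, and libraries were strand-specific, per the labels' protocols. Trimmomatic, FastQC and build rn6 are named, per the submitters' processing notes. Not given in the sources used here are the aligner, the FPKM program, the annotation release and any use of strand. FPKM holds no counts, so counting intervals could not be made.

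Libraries were grouped by title. Of 32662 genes 11149 passed the filter (1 FPKM or more in 4 or more libraries) and were tested on log2(FPKM + 1) in R 4.3.3 by limma 3.58.1 (empirical Bayes with a trend, group only, Benjamini-Hochberg over all tested genes, threshold 0.05), after the procedure had been tested on simulated data. Members, the 16 lists and tests were chosen with earlier results of these data known. Named genes were all members, the 3 other genes of each pathway list with the smallest p, the Csf1 and Cxcl12 ligands and receptors, the 2 highest genes of each marker list and the most similar gene of each member. Rel, Map3k14, Cx3cr1, Ptprc, Gfap, S100b, Aqp4, Aldh1l1, Rbfox3, Nfkbid, Nfkbiz, Bcl3, Il6, Tnf, Il1b, Socs7 and Ifngr1 were named after their values were seen. Of 232 list genes 7 were unmatched and are not analysed here. By an older symbol 1 (Rnf11) was matched, on the row of Rnf11l1. Promoters came from RefSeq (GRCr8), which matched 8 of 9 members. Relative depth came from genes of at most 0.5 FPKM and their ratios to control replicate 1. After scaling by the depth, between 83.2% and 85.6% matched a ratio of whole numbers from 1 to 8 within 0.01 (log2). The share that would match by chance was not computed. No 2 libraries held identical values. Alternatives were quantile normalization, median-centring, a filter of 5 FPKM and none, no trend, a pseudocount of 0.1, the replicate block and each library left out; rescaling outside mitochondrially encoded genes was chosen after seeing the data. Python 3.11.15 was used for tables and figures.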

Additional observations from a re-analysis of the deposited data

Results flagged for a closer look

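For 4 of the 124 sets of 4 replicate values examined, the highest or lowest value was set apart by a wide gap; about 1 in 20 sets, or 6.2, would be by chance. None of the 9 members was among them. Otulin was at 10.6 FPKM in control replicate 1, against 12.2 to 12.4 FPKM in the other control libraries. Ccnd1 was at 185 FPKM in control replicate 1, against 199.5 to 201 FPKM in the others. Cxcl14 was at 3.76 FPKM in OGD replicate 2, against 3.19 to 3.20 FPKM in the other OGD libraries. C1qa, a microglial marker, was at 81.9 FPKM in control replicate 4, against 49.4 to 55.0 FPKM in the others.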

How the results depend on the processing

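The falls of Stat3, Socs3, Irf1 and Csf1 kept their direction and passed under every alternative in which the gene was tested; 4 members fell under each alternative except a filter of 5 FPKM, where 2 fell because Irf1 and Csf1, like Tnfaip3, were no longer tested. Nfkb1 passed under none. The number of members that rose was 1 with median-centring, where Rela had 0.18 (log2), 0 to 2 when single libraries were left out, and 3 with the replicate block and after rescaling outside mitochondrially encoded genes, where Nfkbia also passed. Without single libraries the log2 difference was 0.18 to 0.26 for Rela, 0.49 to 0.76 for Tnfaip3 and 0.21 to 0.38 for Nfkbia. Nfkbia passed with a filter of 5 FPKM (0.30), with the replicate block (0.30, adjusted p = 0.0233) and after rescaling outside mitochondrially encoded genes (0.29). It also passed without OGD replicate 1 or control replicate 4, where Rela did not pass. Pairing of libraries by replicate number was not shown: deviations of same-numbered libraries correlated at -0.22, 0.16, 0.01 and 0.09. These values cannot exclude it. The replicate block gave 2497 genes higher and 3012 lower in OGD, against 2527 and 2992 without it. Of other pathway genes, 17 fell with a filter of 5 FPKM, which left 65 tested, against 29 of 99. Slc1a3, which never passed, turned to 0.0020 with quantile normalization. Except where fewer genes or libraries entered, the cause was not tested. No setting moved the median of all genes by over 0.1 on the log2 scale. FPKM without counts leaves low genes such as Cxcl12 with an error that the libraries' spread alone describes.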

Other observations

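Other chemokine ligands read in the same libraries moved in both directions. Cx3cl1, the membrane-bound ligand of the microglial receptor Cx3cr1, rose to 8.65 ± 0.243 FPKM in OGD, against 6.67 ± 0.854 FPKM in control libraries (SD, n = 4 each; limma, adjusted p = 0.0125). Cxcl14, a chemokine of epithelial and neural cells, fell to 3.34 ± 0.281 FPKM in OGD, against 6.02 ± 0.931 FPKM in control libraries (adjusted p = 0.000667). Cxcl16, a membrane-bound chemokine, fell to 3.84 ± 0.465 FPKM in OGD, against 7.83 ± 1.86 FPKM in control libraries (adjusted p = 0.000635); it overlaps Zmynd15 in the RefSeq annotation, so its values are uncertain. Ccl2, a monocyte attractant, had 0, 0.260, 0 and 0.362 FPKM in OGD libraries 1 to 4, against 1.27, 0.821, 0.956 and 0.399 FPKM in control libraries 1 to 4; it lay below the filter. In these libraries 13 of 14 tested microglial markers fell, and the part of microglial RNA in the chemokine values was not tested.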
